A study of Lathyrus oleraceus with 4 samples.

Results

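In the developing pea seed, 265 of the 35529 assembled unigenes with at least 50 reads in a library separated the vegetable pea Zhewan 1 from the grain pea Zhongwan 6 at both stages sampled (0.746%, of 77269 unigenes in all). The unigenes were chosen by their RPKM in all 4 libraries. A unigene was taken as separating when the lower of the RPKM values of one cultivar was above 0 and at least 2 times the higher RPKM value of the other, so that both libraries of one cultivar lay above both libraries of the other. Of these unigenes, 144 were higher in Zhewan 1 (0.405%) and 121 were higher in Zhongwan 6 (0.341%). RPKM is the number of reads scaled to the length of the unigene and to all reads counted in the library. Because these values chose the unigenes, the differences between cultivars below are a description and carry no test.

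The seeds came from field-grown plants of Zhewan 1 and Zhongwan 6 and were taken at 10 and 25 days after pollination (DAP). Seeds of many plants were pooled, polyadenylated RNA was sequenced, and the values of 1 library for each cultivar and stage were analysed. The methods describe biological replicates, but how they entered the 4 libraries is not stated. No replicate check of the cultivar differences was thus possible. Ranges in parentheses after a ratio of reads are exact intervals (Clopper-Pearson, 95%) and cover counting error only.

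Vegetable peas are eaten as immature sweet seeds, whereas grain peas are harvested dry. A pea embryo first grows by cell division and later fills with starch and storage protein, and at 10 and 25 DAP the seed is at an early and a late point of this course. The unigenes were assembled by Trinity from the pooled reads of both cultivars without a genome. Trinity places sequences that share stretches in a component (the part of the identifier before "_seq"), and the sequences of a component may be transcript isoforms, alleles of the cultivars or copies of a gene family. A difference between cultivars in a single sequence can therefore stand beside an opposite difference in another sequence of its component. No sequence was read here, so that alleles and isoforms could not be told apart.

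The reads counted on unigenes summed to 50086351 to 70912839 per library, which is more than the clean reads of each, so that some reads were assigned to several sequences. Floors are given on the counted totals, and 3 reads on a unigene of 1 kb equal 0.0423 to 0.0599 RPKM. Seed transcripts were present as labelled. FUS3, a regulator of seed maturation known from Arabidopsis, had 9.47 and 211 RPKM in Zhewan 1 at 10 and 25 DAP and 19.8 and 42.6 RPKM in Zhongwan 6. Over the unigenes with at least 50 reads in a library and reads in all 4, Zhongwan 6 stood above Zhewan 1 at 10 DAP by a median of 0.45 on the log2 scale, and at 25 DAP the median difference in the same sense was -0.38. The 10 DAP libraries alone put 2217 unigenes at least 2-fold higher in Zhewan 1 (6.24%) and 7322 higher in Zhongwan 6 (20.6%). At 25 DAP the counts were 7290 higher in Zhewan 1 (20.5%) and 3545 higher in Zhongwan 6 (9.98%).

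By the rule, 265 of the 35529 unigenes separated the cultivars at both stages (0.746%). Taking each stage by itself, 1111 of the 35529 were at least 2-fold apart in the same direction at both stages. Of these, 518 were higher in Zhewan 1 and 593 higher in Zhongwan 6. Another 3104 were at least 2-fold apart in opposite directions. In 2348 of these Zhongwan 6 was higher at 10 DAP and lower at 25 DAP, and in 756 the reverse was seen. The larger group ran the same way as the median differences between the libraries, 0.45 at 10 DAP and -0.38 at 25 DAP on the log2 scale. The numbers to be expected from the single-stage counts were not computed, so these counts do not show whether cultivar differences persist. When the same rule was turned to the stages, 7170 unigenes separated 10 from 25 DAP in both cultivars (20.2%), 3525 higher at 10 DAP (9.92%) and 3645 higher at 25 DAP (10.3%), against the 265 that separated the cultivars.

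**Figure D1:**
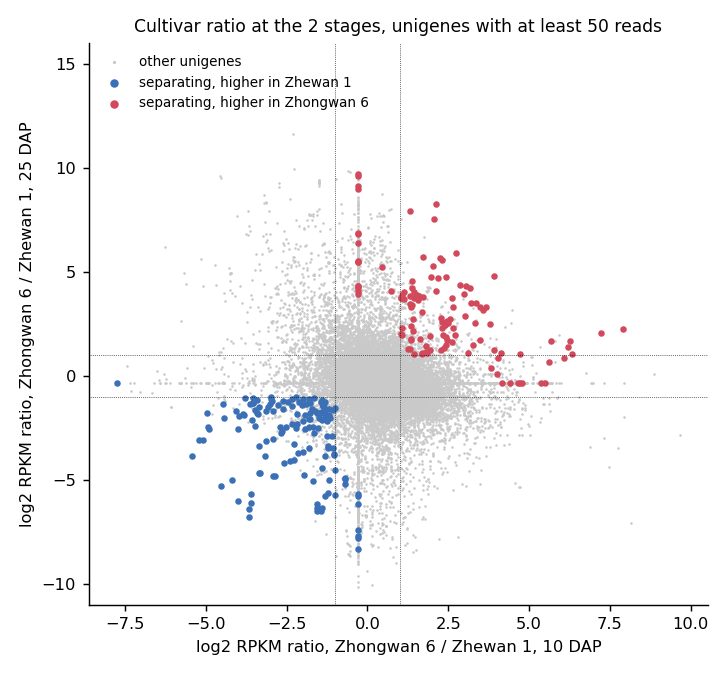
Log2 ratio of RPKM, Zhongwan 6 over Zhewan 1, at 10 DAP (horizontal axis) and at 25 DAP (vertical axis) for the 35529 unigenes with at least 50 reads in a library, with fewer than 3 reads counted as 3. The 144 blue and 121 red points are the separating unigenes and lie in the lower left and upper right corners, apart from those with too few reads at a stage, which lie on the lines of points near 0.

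The separating unigenes were of low to moderate level. The highest RPKM that each reached in any library had a median of 3.13, with 4.01 for those higher in Zhewan 1 and 2.22 for those higher in Zhongwan 6, against 5.38 over all unigenes with at least 50 reads. The range ran from 0.568 to 56.6 RPKM. At least 10 RPKM in a library was reached by 39 (14.7%), 29 higher in Zhewan 1 and 10 higher in Zhongwan 6, against 29.3% of all. No separating unigene reached 100 RPKM (0 of 265), a level passed by 3.09% of all. Together the 265 took 0.0962% and 0.1201% of the counted reads of Zhewan 1 at 10 and 25 DAP, and 0.0600% and 0.0805% of those of Zhongwan 6. Their length had a median of 1011 bp and a range of 205 to 3895 bp, against a median of 1349 bp over all.

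Among the unigenes higher in Zhewan 1, 16 kept at least 10 RPKM in both Zhewan 1 libraries. The unigene with the highest mean level, comp31074_c0_seq2 (1181 bp), had 40.5 and 38.7 RPKM in Zhewan 1 at 10 and 25 DAP and 8.70 and 6.79 RPKM in Zhongwan 6. It differed little between the stages and was higher in Zhewan 1 by 4.66 times (4.27 to 5.10) at 10 DAP and 5.69 times (5.19 to 6.24) at 25 DAP. A similarly steady gap was seen for comp39014_c0_seq1, with 15.3 and 18.4 RPKM in Zhewan 1 and 3.0 and 3.71 RPKM in Zhongwan 6. None of the unigenes of highest level is annotated in the sources used here, so no function is given for them.

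Other unigenes of this direction changed strongly with the stage while keeping the order of the cultivars. The RPKM of comp33378_c1_seq1 was 10.5 and 49.99 in Zhewan 1 at 10 and 25 DAP, and 2.17 and 5.18 in Zhongwan 6. Its lowest Zhewan 1 value was only 2.03 times its highest Zhongwan 6 value, because the early Zhewan 1 seed stood near the late Zhongwan 6 seed. For comp24370_c0_seq1 the stage change ran in opposite directions, from 39.5 to 16.8 RPKM in Zhewan 1 and from 2.83 to 7.92 RPKM in Zhongwan 6. The gap thus shrank from 13.9 times (12.4 to 15.7) at 10 DAP to 2.12 times (1.96 to 2.30) at 25 DAP. For comp36306_c0_seq4 the gap widened instead, with 12.4 and 33.0 RPKM in Zhewan 1 and 5.33 and 2.94 RPKM in Zhongwan 6. Of the remaining unigenes named by level or by ratio, comp25060_c0_seq1 had 21.0 and 22.9 RPKM in Zhewan 1 and 6.09 and 9.11 RPKM in Zhongwan 6. The values of comp33442_c0_seq1 were 23.2 and 17.0 RPKM against 7.37 and 8.25 RPKM. Those of comp21735_c0_seq1 were 27.2 and 11.8 RPKM against 5.88 RPKM at both stages. In these 3 unigenes the lowest Zhewan 1 value was 2.01 to 2.30 times the highest Zhongwan 6 value. Smaller levels were found for comp38738_c0_seq1, with 15.1 and 15.0 RPKM in Zhewan 1 and 3.53 and 6.32 RPKM in Zhongwan 6. The unigene comp39908_c0_seq6 had 14.4 and 11.2 RPKM in Zhewan 1 and 3.59 and 5.16 RPKM in Zhongwan 6. It is a sequence of a component of 11 and held 9.73% of the RPKM summed over them, a sum that can count a read more than once. When the libraries were scaled by their median ratios, comp24370_c0_seq1, comp33442_c0_seq1, comp21735_c0_seq1, comp38738_c0_seq1 and comp39908_c0_seq6 kept their direction but fell below 2-fold, at 0.69 to 0.93 on the log2 scale.

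Among the unigenes higher in Zhongwan 6, only 3 kept at least 10 RPKM in both Zhongwan 6 libraries. The strongest, comp19371_c0_seq1 (666 bp), had 43.1 and 56.6 RPKM in Zhongwan 6 at 10 and 25 DAP and 16.1 and 8.66 RPKM in Zhewan 1. It was higher in Zhongwan 6 by 2.67 times (2.42 to 2.95) at 10 DAP and 6.53 times (5.81 to 7.35) at 25 DAP. The other two are the only sequences of the component comp38182_c1. Their RPKM in Zhongwan 6 was 30.3 and 23.7 for comp38182_c1_seq2 and 23.8 and 18.4 for comp38182_c1_seq1, and in Zhewan 1 it was 8.36 and 11.1 for the former and 6.76 and 8.43 for the latter. Both sequences of this component were thus higher in Zhongwan 6 by about the same factor, 3.62 and 3.52 times at 10 DAP and 2.14 and 2.19 times at 25 DAP, and their sum separated the cultivars as well.

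**Figure D2:**
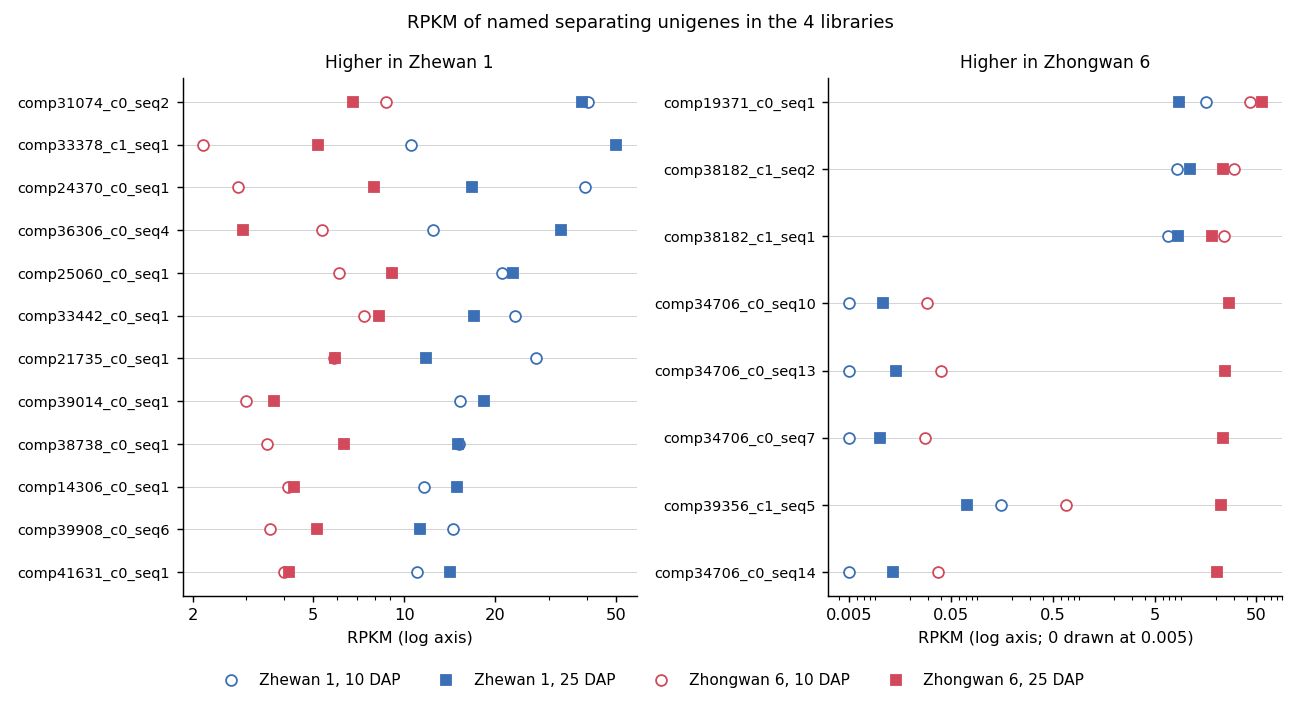
RPKM in the 4 libraries (log axis) of the separating unigenes with the highest level or, among those with at least 10 RPKM in both libraries of the higher cultivar, the largest ratio. Open circles are 10 DAP and filled squares 25 DAP, blue is Zhewan 1 and red is Zhongwan 6, and a value of 0 is drawn at 0.005. On the left all 12 unigenes have both Zhewan 1 values above both Zhongwan 6 values, while on the right 5 of the 8 have a 10 DAP value in Zhongwan 6 below 1 RPKM.

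The remaining unigenes of high mean level in Zhongwan 6 were high at 25 DAP only. In the component comp34706_c0, the members comp34706_c0_seq7, comp34706_c0_seq10, comp34706_c0_seq13 and comp34706_c0_seq14 had 0 reads and 1 read in Zhewan 1 at 10 and 25 DAP. In Zhongwan 6 each had 3 reads at 10 DAP and 1940 to 3175 reads at 25 DAP. The component summed to 185 RPKM in Zhongwan 6 at 25 DAP and to 0, 0.0977 and 0.179 RPKM in Zhewan 1 at 10 and 25 DAP and Zhongwan 6 at 10 DAP. Since some reads were assigned to several sequences, such a sum can count a read more than once and is not the level of a gene. The other 4 sequences of the component had the same pattern with 1 read in place of 3 at 10 DAP in Zhongwan 6 and were therefore not separating. The difference at 25 DAP was large, while the separation at 10 DAP rested on 3 reads. The unigene comp39356_c1_seq5 stood between these cases, with 21 and 11 reads in Zhewan 1 and 111 and 4312 reads in Zhongwan 6. Its RPKM was 0.154 and 0.0723 in Zhewan 1 against 0.670 and 22.3 in Zhongwan 6.

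Just inside the threshold, comp20233_c0_seq1 had 2.53 and 1.5 RPKM in Zhewan 1 and 0.324 and 0.751 RPKM in Zhongwan 6. On the other side comp15065_c0_seq1 had 2.55 and 1.49 RPKM in Zhewan 1 and 7.90 and 5.11 RPKM in Zhongwan 6. Just outside it, comp29810_c0_seq1 had 64.8 and 124 RPKM in Zhewan 1 against 31.7 and 32.6 RPKM in Zhongwan 6, a ratio of 1.99. This unigene was more abundant than any that passed. For comp22464_c0_seq3 the values were 1.63 and 2.20 RPKM in Zhewan 1 against 5.33 and 4.35 RPKM in Zhongwan 6, a ratio of 1.98. Both unigenes just inside fell below 2-fold under median-ratio scaling, at 0.68 and 0.75 on the log2 scale.

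Most separating unigenes lay near the threshold. With fewer than 3 reads counted as 3, the lowest value of the higher cultivar was less than 3 times the highest value of the other in 187 of the 265, and at least 4 times in 44, which were split evenly between 22 in each direction. A ratio of at least 8 was reached by 10 unigenes higher in Zhewan 1 and 1 higher in Zhongwan 6. In 32 unigenes the lower cultivar had no read at either stage, 12 of them higher in Zhewan 1 and 20 higher in Zhongwan 6.

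The largest ratios, chosen after their values were seen, belonged to unigenes with few or no reads in the lower cultivar. For comp31090_c0_seq2 (633 bp) there were 57 and 93 reads in Zhewan 1 at 10 and 25 DAP and 0 reads in both Zhongwan 6 libraries, at least 23.1-fold higher in Zhewan 1 when the floor is 3 reads in each library. The reads of comp25660_c0_seq1 were 40 and 155 in Zhewan 1 and again 0 in Zhongwan 6, at least 16.2-fold higher in Zhewan 1. Both are alone in their components, and a count of 0 here allows up to 3 reads. For comp40290_c0_seq1 there were 45 and 76 reads in Zhewan 1 and 3 reads and 1 read in Zhongwan 6, and a second sequence of its component, comp40290_c0_seq5, had 25 and 60 reads in Zhewan 1 and 0 in Zhongwan 6. The remaining sequence, comp40290_c0_seq8, was present in both cultivars, with 66 and 330 reads in Zhewan 1 and 36 and 237 reads in Zhongwan 6. In the other direction comp10926_c0_seq1 (393 bp) led, with 3 and 0 reads in Zhewan 1 and 55 and 105 reads in Zhongwan 6. Its ratio at 10 DAP was 15.1 (4.90 to 75.4). The unigene comp5308_c0_seq2 (237 bp) had 5 reads at each stage in Zhewan 1 and 48 and 96 reads in Zhongwan 6.

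The evidence behind a separation differed between the directions. The Zhongwan 6 libraries held 60861344 and 70912839 counted reads at 10 and 25 DAP, against 50086351 and 55819963 in Zhewan 1. A count of 50 reads thus equals a lower RPKM in Zhongwan 6, and the part of depth in the difference was not tested. At least 50 reads in both libraries of the higher cultivar were found for 94 of the 144 unigenes higher in Zhewan 1 and for 56 of the 121 higher in Zhongwan 6. Fewer than 10 reads in one of these libraries were found for 15 and 34 unigenes, and 3 or fewer for 8 and 22. The interval of the ratio of reads lay above 1 at both stages for 129 and 88 unigenes and above 2 at both stages for 80 and 40. With fewer than 3 reads counted as 3, 11 unigenes higher in Zhewan 1 and 31 higher in Zhongwan 6 fell below a ratio of 2. An example from this group is comp11696_c0_seq1, which had 0 reads in both Zhewan 1 libraries and 92 reads and 1 read in Zhongwan 6.

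**Figure D3:**
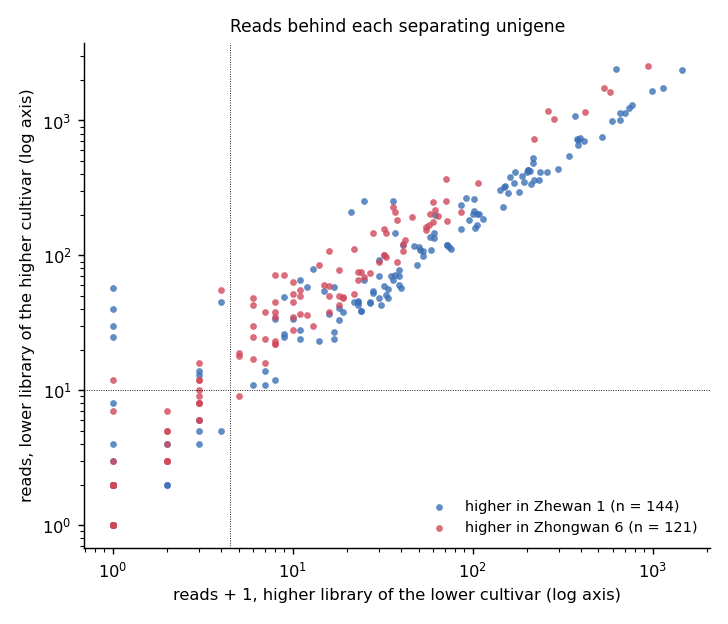
Reads in the lower library of the higher cultivar (vertical, log axis) against reads plus 1 in the higher library of the lower cultivar (horizontal, log axis) for the 144 unigenes higher in Zhewan 1 (blue) and the 121 higher in Zhongwan 6 (red). The dotted lines mark 10 reads and the step from 3 to 4 reads, and of the 49 unigenes below 10 reads on the vertical axis 34 are red.

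The gap between the cultivars was usually not the same at the 2 stages. The median gap was 2.04 on the log2 scale at 10 DAP and 2.47 at 25 DAP. It was larger at 25 DAP in 160 unigenes and larger at 10 DAP in 105, while in 98 the 2 gaps were within 2-fold of each other. In 78 the gap at 25 DAP was at least 4 times that at 10 DAP, and in 39 it was the reverse. Where the lower cultivar had fewer than 3 reads, the gap depends on this floor. For 1 kb the floor was 0.0599 and 0.0537 RPKM in Zhewan 1 at 10 and 25 DAP. In Zhongwan 6 it was 0.0493 and 0.0423 RPKM, so that it lay lower at 25 DAP in both cultivars.

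The stage change within a cultivar was tested on the reads of each unigene (two-sided Fisher's exact test, Benjamini-Hochberg adjustment over all unigenes with a read, FDR of at most 0.001 and at least 2-fold). The test compares 2 libraries, not 2 conditions. In the Zhewan 1 libraries 75 of the 265 separating unigenes passed (28.3%), 43 rising and 32 falling toward 25 DAP, while 51.7% of all unigenes with at least 50 reads passed, 35.5% rising and 16.2% falling. In the Zhongwan 6 libraries 98 passed (37.0%), 52 rising and 46 falling, against 41% of all, 15.8% rising and 25.2% falling. The rule requires both stages of a cultivar to clear both stages of the other and so limits the level of the lower cultivar. These shares are therefore not independent of it.

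In each direction more changes were called in the cultivar where the unigenes were high, which is also where they had more reads. Of the 144 unigenes higher in Zhewan 1, 41 rose (28.5%) and 15 fell (10.4%) in Zhewan 1. In Zhongwan 6, 22 of these rose (15.3%) and 11 fell (7.64%). Of the 121 higher in Zhongwan 6, 2 rose and 17 fell in Zhewan 1 while 30 rose and 35 fell in Zhongwan 6. Changes were thus called in Zhongwan 6 for 53.7% of the 121, above the 41% of all unigenes with at least 50 reads. In Zhewan 1 the share of the 121 was 15.7%, below the 51.7% of all. The unigenes higher in Zhewan 1 lay below these shares of all in both cultivars, at 38.9% in Zhewan 1 and 22.9% in Zhongwan 6. Neither cultivar showed a called change in 102 (38.5%, against 32.1% of all), and exactly 1 cultivar did in 153, against 43.1% of all.

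**Figure D4:**
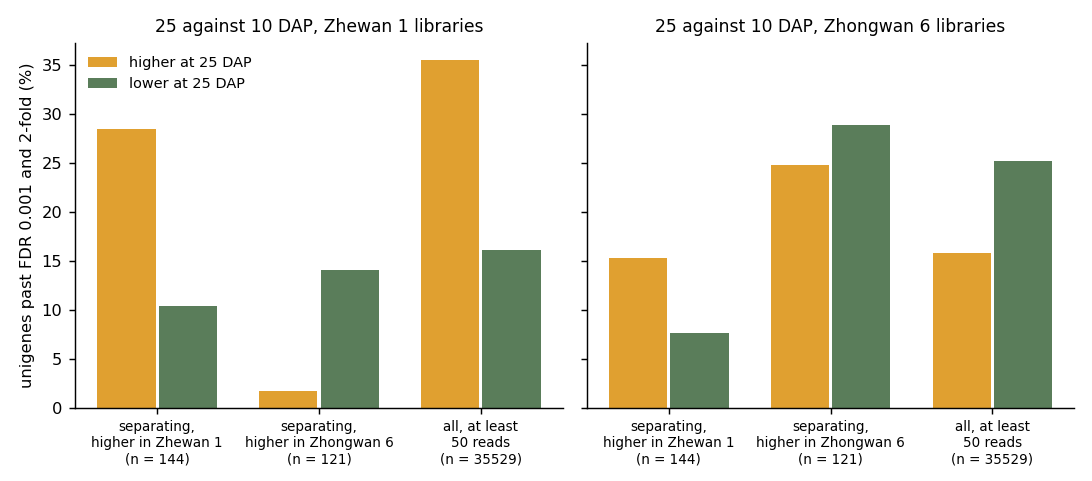
Share of unigenes (%) whose reads rose (orange) or fell (green) from 10 to 25 DAP at an FDR of at most 0.001 and at least 2-fold, in the Zhewan 1 libraries (left) and the Zhongwan 6 libraries (right). In Zhewan 1, 2 of the 121 unigenes higher in Zhongwan 6 rose, and among all unigenes with at least 50 reads 35.5% did. The rule keeps the lower cultivar at few reads and leaves less room for a rise there, so that this contrast is not independent of the rule.

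A rise was called in both cultivars for 4 of the 265 separating unigenes, all of them higher in Zhewan 1, against 10.9% of all unigenes with at least 50 reads. A fall in both was called for another 4, against 10.4% of all, and these were higher in Zhongwan 6. As for the single cultivars, these shares are not independent of the rule. The rising ones were comp33378_c1_seq1, described above, comp41057_c0_seq1, comp40376_c0_seq12 and comp40376_c0_seq15. For comp41057_c0_seq1 the RPKM went from 7.39 to 25.4 in Zhewan 1 and from 0.968 to 3.07 in Zhongwan 6, so that the cultivars were 7.64 times (6.20 to 9.49) and 8.27 times (7.43 to 9.24) apart at 10 and 25 DAP. This is a rise of 1.78 and 1.66 on the log2 scale with a gap of similar size at both stages. The falling ones had their counterpart in comp24307_c0_seq2, which went from 1.51 to 0.729 RPKM in Zhewan 1 and from 7.49 to 3.56 RPKM in Zhongwan 6, with gaps of 4.97 and 4.88 times. The other three, comp23840_c0_seq4, comp22413_c0_seq1 and comp14861_c0_seq2, fell from 17, 17 and 31 reads to 0 reads in Zhewan 1. In Zhongwan 6 they fell from 150, 126 and 205 reads to 78, 50 and 101 reads.

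In 2 unigenes the called changes ran in opposite directions, against 3.52% of all. The first, comp24370_c0_seq1, fell by 1.23 on the log2 scale in Zhewan 1 and rose by 1.48 in Zhongwan 6. The second, comp31466_c0_seq1, had 107 and 240 reads in Zhewan 1 and 52 and 21 reads in Zhongwan 6.

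Of the 265 separating unigenes, 115 (43.4%) were in a component of 2 or more sequences and 150 were alone, against 57.4% of all unigenes with at least 50 reads in such components. They came from 228 components, and 28 components held more than 1 of them, at most 4. Only the 28 components with more than 1 separating unigene could hold both directions, and none of them did (0 of 28). The count was also 0 with the component taken as the wider graph (the identifier up to "_c"), and with minimums of 20 or 200 reads.

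Summing all sequences of a component kept the separation in a minority of the cases. The sums include the separating unigene's own RPKM, which the rule used, and are therefore a description. Because some reads were assigned to several sequences, the sums here and below, and the shares taken from them, can count a read more than once. The sum separated the cultivars in the same direction for 45 of the 115 unigenes, 30 higher in Zhewan 1 and 15 higher in Zhongwan 6, and did not for 70. The sum was separated in the opposite direction for 0. It lay on the unigene's side at both stages for 94 and changed side between the stages for 21. A separating unigene held a median of 32.6% of the RPKM of its component in the cultivar where it was high, more than 50% in 26 cases and less than 10% in 17.

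**Figure D5:**
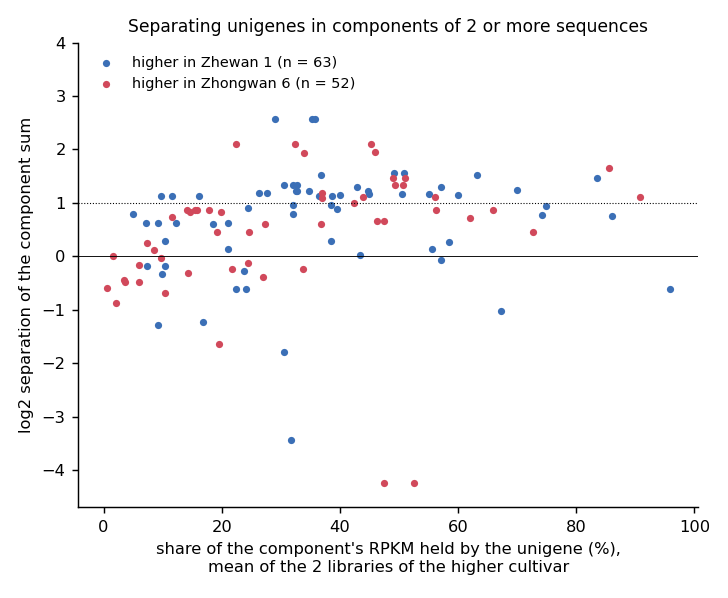
Log2 of the ratio of the lowest component sum of the higher cultivar to the highest of the other (vertical) against the share of the component's RPKM held by the separating unigene (horizontal), for the 63 unigenes higher in Zhewan 1 (blue) and the 52 higher in Zhongwan 6 (red) in components of 2 or more sequences. The 45 points at or above the dotted line at 1 are those whose component sum separates the cultivars by at least 2-fold, and the other 70 lie below it.

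The components of these 115 unigenes held 340 sequences beside a separating unigene, each counted once, and 299 of them had at least 50 reads. Of the 299, 65 were themselves separating in the same direction, 85 more were higher in the same cultivar at both stages and 124 changed side between the stages. In 16 a stage had no reads in either cultivar. Only 9 were higher in the opposite cultivar at both stages, in 6 components with 8 separating unigenes. An opposite difference of at least 2-fold at one stage or more, counts of 0 included, was found for 37 sequences, in 20 components with 24 separating unigenes.

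An opposite pattern at both stages was seen in comp33804_c0, a component of 3 sequences. The separating sequence, comp33804_c0_seq3 (1354 bp), had 3 and 755 reads in Zhewan 1 at 10 and 25 DAP and 0 reads in both Zhongwan 6 libraries, so that its separation at 10 DAP rested on 3 reads. The other sequences, comp33804_c0_seq1 and comp33804_c0_seq4, were higher in Zhongwan 6. The reads of comp33804_c0_seq1 were 32 and 228 in Zhewan 1 and 91 and 569 in Zhongwan 6, a log2 ratio of 1.23 at 10 DAP and 0.97 at 25 DAP. Those of comp33804_c0_seq4 were 43 and 278 in Zhewan 1 and 116 and 630 in Zhongwan 6, a log2 ratio of 1.15 and 0.84. Summed over the component, the RPKM was 1.16 and 16.8 in Zhewan 1 against 2.54 and 12.7 in Zhongwan 6, so that the late seeds of the cultivars differed far less in the sum than in the separating sequence. The 3 sequences are of nearly equal length, 1286 to 1379 bp.

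In comp40474_c0, a component of 14 sequences, comp40474_c0_seq5 and comp40474_c0_seq40 had 497 and 395 reads in Zhewan 1 at 25 DAP and no more than 2 reads in the other libraries. Another sequence, comp40474_c0_seq31, had 84 and 4 reads in Zhewan 1 and 138 and 271 reads in Zhongwan 6, while comp40474_c0_seq9 had 99 reads in Zhongwan 6 at 25 DAP and 0 elsewhere. The sum of the component was 39.8 and 85.9 RPKM in Zhewan 1 and 45.3 and 30.6 RPKM in Zhongwan 6. At 25 DAP the component thus held sequences found almost only in Zhewan 1 and others found almost only in Zhongwan 6, whereas at 10 DAP the sums were close. In comp39356_c1, likewise of 14 sequences, comp39356_c1_seq11 had 262 and 5 reads in Zhewan 1 and 1323 and 1182 reads in Zhongwan 6. Here comp39356_c1_seq20 went the other way, with 9 and 75 reads in Zhewan 1 and 8 and 25 reads in Zhongwan 6. In comp40474_c0 the sequences higher in Zhongwan 6 at both stages also included comp40474_c0_seq11, with 557 and 504 reads in Zhewan 1 against 886 and 726 in Zhongwan 6, and comp40474_c0_seq21, with 26 and 100 reads against 57 and 195. The other opposite sequences of at least 50 reads were in comp40441_c1, comp38073_c0 and comp40720_c0.

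A whole graph was higher in Zhewan 1 in the case of comp40376. It was assembled as comp40376_c0, with 11 sequences, and comp40376_c1, with 3, and every one of these 14 was higher in Zhewan 1 at both stages. For comp40376_c1_seq13 this rested at 10 DAP on 10 reads in Zhewan 1 against 7 in Zhongwan 6. A read can be assigned to several sequences, so that the 14 are not separate observations. The separating sequence with the largest ratio among them, comp40376_c0_seq8 (1014 bp), had 251 and 967 reads in Zhewan 1 and 24 and 11 reads in Zhongwan 6. The ratio was 12.7 (8.35 to 20.2) at 10 DAP and 112 (62.1 to 224) at 25 DAP. Close to it were comp40376_c0_seq7, with 251 and 1408 reads in Zhewan 1 against 25 and 35 in Zhongwan 6, and comp40376_c1_seq6, whose reads were 209 and 721 in Zhewan 1 against 20 and 11 in Zhongwan 6. Less far apart were comp40376_c0_seq12 and comp40376_c0_seq15, which had equal counts of 119 and 1595 reads in Zhewan 1 and 19 or 20 and 71 reads in Zhongwan 6. The sum over comp40376_c0 was 14.02 and 247 RPKM in Zhewan 1 and 2.35 and 9.16 RPKM in Zhongwan 6. It was higher in Zhewan 1 at both stages, but because the late Zhongwan 6 value came near the early Zhewan 1 value the sum missed the 2-fold rule. None of the sequences of this graph is annotated in the sources used here.

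In comp36306_c0, 2 of the 3 sequences separated the cultivars and the third did not. The separating comp36306_c0_seq2 had 316 and 34 reads in Zhewan 1 against 9 and 0 in Zhongwan 6, so that it was highest early, whereas comp36306_c0_seq4 was highest late. The longest sequence, comp36306_c0_seq3 (3380 bp), carried most of the component, with 17.8 and 88.6 RPKM in Zhewan 1 and 13.9 and 11.3 RPKM in Zhongwan 6.

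Some separating unigenes had nearly the same reads as another. Of the 40 with at least 100 reads in every library, 7 pairs agreed within 10% in all 4 libraries, 3 within a component and 4 between components. The reads of comp14306_c0_seq1 were 744 and 1066 in Zhewan 1 and 322 and 392 in Zhongwan 6, and those of comp41631_c0_seq1 were 719 and 1025 in Zhewan 1 and 317 and 383 in Zhongwan 6. The 3 sequences of comp31990_c0 and comp33522_c0_seq2 formed the remaining pairs, with 415 to 448 reads in Zhewan 1 at 10 DAP and 199 to 208 in Zhongwan 6. Some reads were assigned to several sequences in every library, but which of these pairs share reads was not tested, and the unigenes are not separate observations.

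A description of function was available for few of them. Of the unigenes with at least 50 reads, 575 had a best hit in the part of the annotation against Medicago truncatula that could be read, and 8 of these were separating, 5 higher in Zhewan 1 and 3 higher in Zhongwan 6. Only comp13018_c0_seq1 had at least 5 RPKM in both libraries of the higher cultivar, the level set for naming, and the other 7 are named after their values were seen.

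Higher in Zhewan 1 was comp12472_c0_seq1, annotated as 4-coumarate:CoA ligase 2, an enzyme of the general phenylpropanoid pathway that leads to lignin and flavonoids. It had 291 and 540 reads in Zhewan 1 at 10 and 25 DAP and 30 and 156 reads in Zhongwan 6, which is 3.01 and 5.02 RPKM against 0.256 and 1.14 RPKM. The gap was 11.8 times (8.08 to 17.8) at 10 DAP and 4.40 times (3.67 to 5.29) at 25 DAP, as it rose between the stages in Zhongwan 6 by 2.16 on the log2 scale. Annotated as a RING/U-box protein, a class that includes ubiquitin ligases, comp13018_c0_seq1 had 6.83 and 5.09 RPKM in Zhewan 1 and 0.475 and 1.44 RPKM in Zhongwan 6. It rose in Zhongwan 6 by 1.60 on the log2 scale and passed no call in Zhewan 1. A myosin heavy chain-related protein, comp12820_c0_seq1, had 306 and 406 reads in Zhewan 1 against 98 and 140 in Zhongwan 6. A histone, the protein around which DNA is wound, was represented by the short unigene comp12448_c0_seq1 with 38 and 84 reads in Zhewan 1 against 12 and 18 in Zhongwan 6. An alpha/beta-hydrolase, a member of a broad enzyme superfamily, was low in both cultivars, with 43 and 56 reads in Zhewan 1 against 21 and 30 in Zhongwan 6 for comp11147_c0_seq1.

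Higher in Zhongwan 6 was comp12879_c0_seq1, annotated to the RIN4 family, whose founding member in Arabidopsis is a regulator of immunity that resistance proteins guard. It had 23 and 40 reads in Zhewan 1 and 135 and 121 reads in Zhongwan 6, a gap of 4.83 times (3.09 to 7.88) at 10 DAP and 2.38 times (1.65 to 3.50) at 25 DAP. A vacuolar iron transporter of the VIT family, which in Arabidopsis loads iron into the vacuoles of the seed, was represented by comp11254_c0_seq1. It had 9 reads at each stage in Zhewan 1 and 55 and 45 reads in Zhongwan 6, so that the cultivars stood 5.03 times (2.47 to 11.6) and 3.94 times (1.90 to 9.16) apart. The third, comp11696_c0_seq1, was the P-glycoprotein 11 hit, an ABC transporter, whose 92 reads and 1 read in Zhongwan 6 are given above. It fell in Zhongwan 6 and was without a read in Zhewan 1.

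The annotated groups of seed biology were almost without separating unigenes. The transporter list had 1 of 12 with at least 50 reads, the vacuolar iron transporter. The separating ABC transporter hit named above was not on this list, so the list does not hold every annotated transporter. There were 0 of 6 among embryo and seed maturation proteins, 0 of 2 among seed coat enzymes and 0 of 5 among photosynthesis proteins. There were 0 of 2 among disease resistance proteins, 0 of 5 among protease inhibitors and 0 of 8 among proteins of sugar and cell wall metabolism. Kinases had 0 of 23, repeat proteins of the PPR and TPR kinds 0 of 18, transcription factors 0 of 19 and ribosomal proteins 0 of 14. At a share of 0.746% over all unigenes, lists of this size hold few or no separating unigenes, so that these counts do not set the groups apart. The summed level of the embryo list was 260.2 and 219.5 RPKM in Zhewan 1 and 170.1 and 449 RPKM in Zhongwan 6, and that of the photosynthesis list 32.5 and 578 RPKM in Zhewan 1 and 26.6 and 164 RPKM in Zhongwan 6. The part of these cell types in the separating unigenes was not tested, and fewer cells of a type and less RNA per cell cannot be told apart in whole seeds.

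The 16 unigenes that the study names by identifier, of sugar, starch and amino acid metabolism among others, were also not separating (0 of 16). At the share of 0.746% over all unigenes, a list of this size holds few or no separating unigenes, so that the count does not set them apart. Of the 16, 6 were higher in the same cultivar at both stages, and no share over all unigenes was taken for this. Sucrose synthase, which splits sucrose in the growing seed, is an example. Its level, for comp38328_c0_seq2, was 28.3 and 654 RPKM in Zhewan 1 and 26.4 and 60.9 RPKM in Zhongwan 6, so that the cultivars were close at 10 DAP and far apart at 25 DAP. Granule-bound starch synthase 1, which makes amylose, changed sides. The unigene comp40911_c0_seq4 had 280.5 and 1533 RPKM in Zhewan 1 and 52.0 and 2165 RPKM in Zhongwan 6.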

How the data were processed

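Seeds of Zhewan 1 and Zhongwan 6 at 10 and 25 DAP were measured by RNA-Seq, 1 library per group. The authors assembled the pooled reads with Trinity, mapped the reads of each library to the unigenes with Bowtie 0.12.8 (version from the submitters' processing notes), and deposited counts per unigene and RPKM. The counted totals exceed the clean reads, so some reads were assigned to several sequences, but the mapping settings are not given in the sources used here. The deposited RPKM was recomputed from count, length and total and differed in 2 of 309076 entries.

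Counts were used for tests and intervals, RPKM for ratios. The rule needs at least 50 reads in a library, and 424 unigenes listed at 0 in 3 libraries were left out. The members, lists and tests were chosen with earlier results of these data known. Named were, per direction, the 8 members with the highest mean RPKM in the higher cultivar, the 8 with the largest ratio among those with at least 10 RPKM in both its libraries, annotated members with at least 5 RPKM in both its libraries, and those nearest the threshold. Components with members of both directions were also to be named and there were 0, as were members named by the study. Stage changes were tested by Fisher's exact test with R 4.3.3 on unigenes with a read in either library. The test was checked on simulated counts. Alternatives were other read minimums, pseudocounts, RPKM minimums, a 4-fold threshold, scalings, component sums, each stage alone and a chi-square test. Annotation came from 1998 rows, of which 1121 matched a unigene, and 0 identifiers matched the RefSeq pea table. The tables and figures were made with pandas 2.3.3, matplotlib 3.10.9, SciPy 1.17.1 and NumPy 2.4.6 under Python 3.11.15.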

Additional observations from a re-analysis of the deposited data

Results flagged for a closer look

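In 2 separating unigenes the called stage change ran in opposite directions in the cultivars, as it did in 3.52% of all unigenes with at least 50 reads. For comp24370_c0_seq1 the log2 ratio of the late to the early library was -1.23 in Zhewan 1 but 1.48 in Zhongwan 6, a difference of 2.72. For comp31466_c0_seq1 it was 1.01 in Zhewan 1 and -1.53 in Zhongwan 6, a difference of -2.54. With 1 library per group the difference was not tested.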

How the results depend on the processing

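The number of separating unigenes depended on the minimum of reads, with 466 at 20 reads, 116 at 200 reads and 3457 with no minimum in place of 265. A 4-fold threshold left 78, a pseudocount of 1 RPKM left 53, and an RPKM of at least 1 or 10 in both libraries of the higher cultivar left 142 or 19. The 10 DAP libraries alone gave 9539 and the 25 DAP libraries alone 10835. Added after the data were seen, a minimum of 50 reads in both libraries of the higher cultivar gave 150, and 2-fold at each stage separately gave 1111. The share higher in Zhewan 1, 54.3%, became 48.7% at 20 reads, 62.9% at 200 reads and 45.1% with no minimum. It became 39.7% at 4-fold, 73.6% with the pseudocount of 1, and 69.0% and 84.2% with the RPKM minimums. At 10 DAP alone it was 23.2%, and at 25 DAP alone 67.3%.

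The other settings left the total within 1.5 times. Median-ratio scaling gave 283 unigenes, of which 215 were among the 265, and equal sums of RPKM gave 266, of which 260 were. A pseudocount of 0.1 RPKM gave 184, with the unigenes higher in Zhongwan 6 down from 121 to 68, component sums 182, and counting fewer than 3 reads as 3 gave 223, both in the lower cultivar and, added later, in all libraries. Also added later were at least 10 reads in both libraries of the higher cultivar, with 216, and an interval above 1 at both stages, with 217. Of the 23 named unigenes, median-ratio scaling left 16 at 2-fold and component sums left 17, with 0 reversed in either. For a unigene alone in its component the sum is the unigene itself, so that its result could not change. The 6 that component sums put below 2-fold were all in components of 2 or more sequences. The 7 lost by scaling were comp24370_c0_seq1, comp33442_c0_seq1, comp21735_c0_seq1, comp38738_c0_seq1, comp39908_c0_seq6, comp20233_c0_seq1 and comp15065_c0_seq1. The number of unigenes whose component sum separates was 45, and 41 to 50 under the alternatives. At 4-fold, stage changes called fell from 75 to 44 in Zhewan 1 and from 98 to 61 in Zhongwan 6. No paired analysis was possible because each group has 1 library, and for the same reason no replicate could be left out. Depth limits the 61 unigenes with at most 3 reads in both libraries of the lower cultivar.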
